A study of Homo sapiens with 6 samples.

Results

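The mitochondrial ribosomal protein genes were taken as every gene symbol in the count tables that consists of MRPL or MRPS, a number and at most 1 further letter. The rule found 78 of 43424 symbols, 29 with the small-subunit prefix MRPS and 49 with the large-subunit prefix MRPL. They were read in HepG2, a line derived from a human hepatocellular carcinoma, labelled WT, in 3 control cultures with the treatment given as none and 3 cultures given 10 µM tamarixetin, an O-methylated relative of the flavonol quercetin, for 24 h. Each group's samples are named biological replicates in the labels, so p-values measure the spread between these cultures of 1 cell line. All cells were grown in RPMI1640 with 10% fetal bovine serum. The medium that carried tamarixetin held 1% serum, and neither the serum nor a vehicle of the control cultures during those hours is stated, so the compound and a change of serum cannot be told apart where the controls kept the growth medium. The comparison addresses which transcripts differ in liver cancer cells after exposure to the compound.

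The mitochondrial ribosome sits in the matrix at the inner membrane and makes the few proteins that mitochondrial DNA encodes, all of them core subunits of the respiratory chain or of ATP synthase. Its small subunit reads the mRNA and is built on the 12S rRNA, and its large subunit joins the amino acids and is built on the 16S rRNA. Both rRNAs come from mitochondrial DNA, whereas every protein of the ribosome is encoded in the nucleus, translated in the cytosol and imported. Many of these proteins have a bacterial counterpart, and others occur only in mitochondrial ribosomes.

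Transcripts of the mitochondrial ribosomal proteins were on balance slightly more abundant after tamarixetin, with small differences in each gene. Of the 78 symbols, 76 had enough counts to be tested. Among those, 34 rose, 6 fell and 36 did not pass the test (edgeR's quasi-likelihood test, Benjamini-Hochberg adjusted p under 0.05 over 13198 genes). The share called was 52.6%, against a background of 43.7% of all genes tested. Among genes of like level the background was larger: of the 5853 tested genes with a mean between 21.2 and 241 CPM (counts scaled to a common library total), the range of 75 of the symbols, 56.6% were called, 29.8% higher and 26.7% lower. In the upward direction the members' share was 44.7% against 22.4% of all genes, and in the downward direction 7.89% against 21.3%. The median log2 fold change of the tested symbols was 0.13 (quartiles -0.030 and 0.21), beside 0.00 (quartiles -0.24 and 0.23) over all genes and 0.011 over those in that range of levels, and 52 of the 76 lay above 0 against 50% of all genes. No symbol differed by 2-fold or more. The median size of a difference, regardless of sign, was 0.14 on the log2 scale, against 0.23 over all genes and 0.19 among those of like level. The 3 libraries of one group lay wholly apart from those of the other for 44 of the 76 symbols, 37 higher and 7 lower after tamarixetin, against 50.5% of all genes (26% higher and 24.5% lower). Among the 5853 genes of like level, the groups lay apart for 3625, 1919 higher and 1706 lower.

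**Figure D1:**
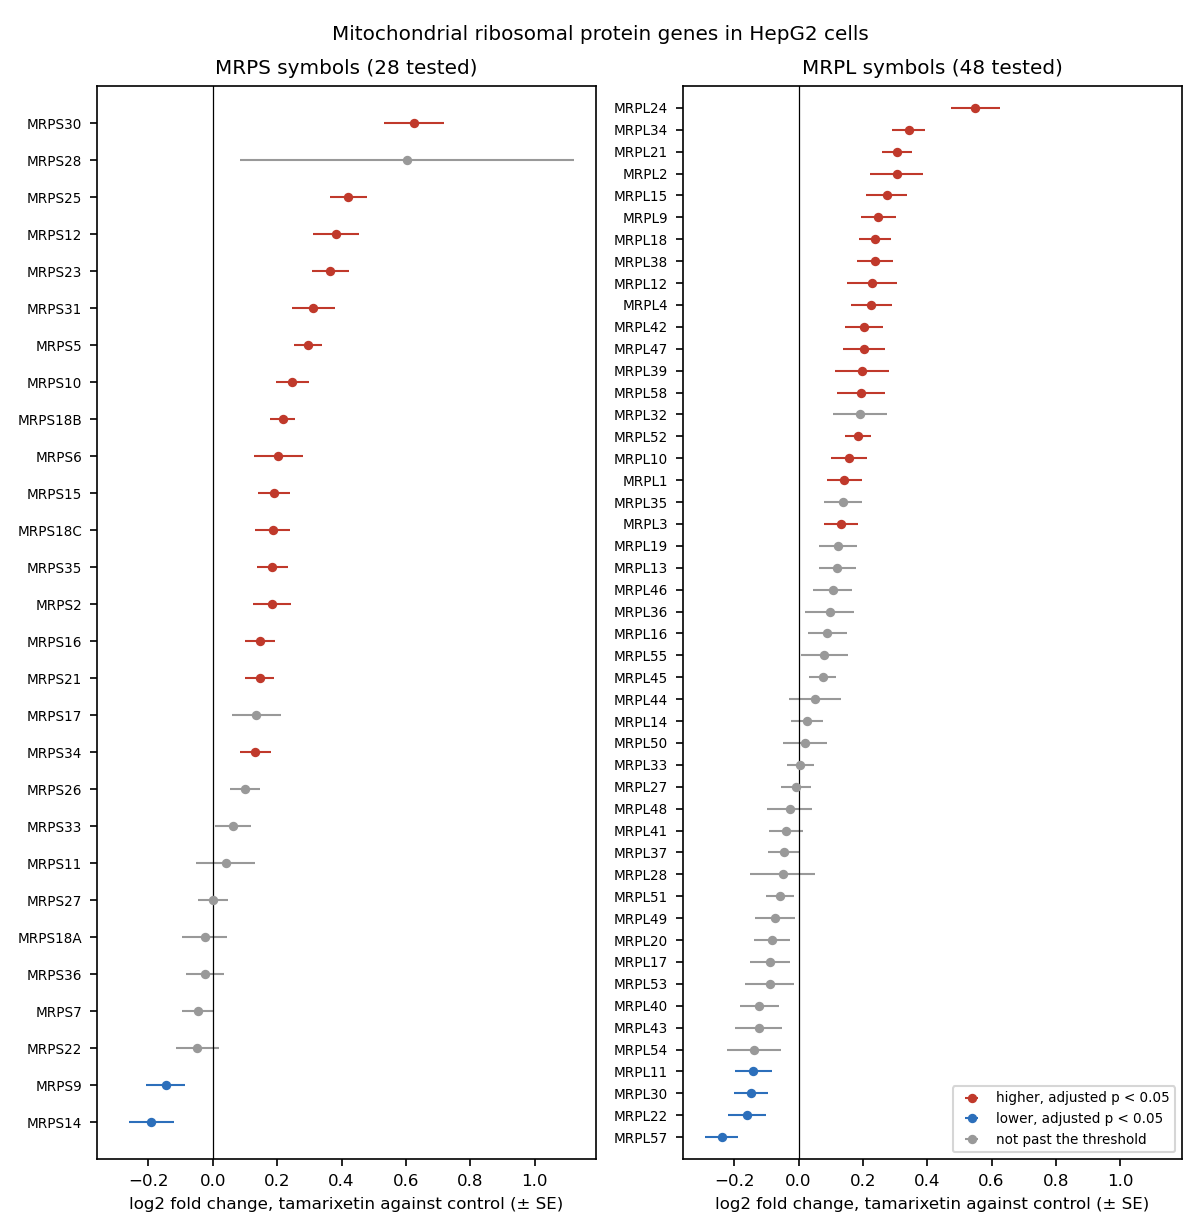
Log2 fold change of tamarixetin against control (x axis, bars ± SE) for each tested MRPS symbol (left) and MRPL symbol (right), ordered by size and coloured by the call at an adjusted p of 0.05. Red points (16 MRPS and 18 MRPL) sit to the right of 0, blue points (2 and 4) to the left, and the wide bar of MRPS28 belongs to a gene with only 4 to 16 counts per library.

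Levels are given in CPM. The libraries count about 1 fragment per transcript next to its poly(A) tail, so CPM can be set side by side between genes without division by length. CPM are shares of the RNA in a library, and a change in the number of cells or in the RNA of each cell cannot be told apart from them. Total counts ran from 11980585 to 16168855 per library, and 18291 to 19003 genes had at least 1 count. The symbols together took 0.617% ± 0.00726 of all control counts and 0.680% ± 0.00571 of all tamarixetin counts (SD, n = 3 libraries in each group). Their summed level was 6251 ± 63.6 CPM in control and 6727 ± 67.0 CPM in tamarixetin libraries, a ratio of 1.08. Hepatocyte markers that define the line were present and moved with the groups: 9 of 9 (among them ALB, APOA1 and HNF4A) fell, beside 21.3% of all genes. Their sum went from 16340 ± 308 CPM to 9361 ± 132 CPM. Of 7 markers of blood, endothelial and mesenchymal cells, 5 were tested and 2 fell (COL1A1 and ACTA2), 40% beside the same 21.3%. Their sums were 121 ± 1.45 CPM and 110.1 ± 2.57 CPM. The leukocyte marker PTPRC was at 0.11 and 0.10 CPM and the endothelial marker VWF at 0.13 and 0.34 CPM. The part that the fall of hepatocyte transcripts has in the members' shares was not tested.

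The symbols covered a narrow range of levels with 3 exceptions. From MRPL28 at a mean of 21.2 CPM to MRPS18B at 241 CPM, 75 symbols spanned about an order of magnitude, and most libraries of a group lay close together, with a median coefficient of variation of 4.56% in control and 3.86% in tamarixetin libraries. MRPS24 had 0 counts in all 6 libraries, which allows at most 3 counts in each. Its gene overlaps the readthrough gene URGCP-MRPS24 on the same strand, which was also at 0. MRPL23 had 2, 0 and 10 counts in control and 4, 0 and 3 in tamarixetin libraries and was left untested with MRPS24. MRPS28 passed the filter with 6, 4 and 16 counts in control and 9, 16 and 13 in tamarixetin libraries. It lies in a gene interval shared with the readthrough gene TPD52-MRPS28, and its log2 fold change of 0.60 ± 0.52 was not called (edgeR adjusted p = 0.365). With so few counts assigned to these 3 symbols a difference was not detectable, and why the counts were low was not tested.

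The largest rise belonged to MRPS30, a protein without a bacterial counterpart. Despite its small-subunit symbol, it is placed in the large subunit in structures of the ribosome, where it has the family name mL65. MRPS30 had 20.6, 19.9 and 18.8 CPM in control and 30.02, 30.4 and 31.0 CPM in tamarixetin libraries. Every treated culture lay above every control, by a margin far wider than the spread within either group. The ratio was 1.54, a log2 fold change of 0.62 ± 0.094 (edgeR adjusted p = 1.59e-08). MRPS30 lies on chromosome 5 from 44808947 to 44815514, plus strand, in RefSeq GRCh38.p14.

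MRPL24, next in size, encodes uL24m, which lines the rim of the exit tunnel through which the new protein leaves. It had 33.2, 32.7 and 35.0 CPM in control and 46.3, 50.9 and 50.9 CPM in tamarixetin libraries. All treated cultures were above all controls, with the first of them the lowest. The ratio was 1.46, a log2 fold change of 0.55 ± 0.076 (edgeR adjusted p = 9.98e-10). The gene lies on chromosome 1 from 156737303 to 156742716, minus strand, and overlaps HDGF on the same strand. HDGF had a mean of 36.2 CPM and a log2 fold change of -0.012, and how reads of the overlap were assigned is not given in the sources used here.

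Promoter sequence from RefSeq (GRCh38.p14) is shown for 4 genes, chosen after their values were seen: both leading rises, the most abundant symbol (MRPS18B, which rose) and 1 of the 6 genes that fell (MRPL22). Capitals mark matches, on either strand, to the letters searched: GCATGCGC for the NRF1 site, CACGTG for the E-box, CCGGAAGT for the ETS site, AAGATGGCG for the YY1 site, and, for the ZNF143 site, the capitals shown for MRPL24 with any base allowed at the eighth place. For MRPS30 (chr5:44808697-44808946, plus strand), MRPS18B (chr6:30617590-30617839, plus strand) and MRPL22 (chr5:154940823-154941072, plus strand) the 250 bases before the start are given. For MRPL24 the window lies within the outer span of the gene, and only 30 bases around each of its 2 matches are given (chr1:156741184-156741213 and chr1:156741123-156741152, minus strand), which begin 116 and 55 bases before the start.
MRPS30: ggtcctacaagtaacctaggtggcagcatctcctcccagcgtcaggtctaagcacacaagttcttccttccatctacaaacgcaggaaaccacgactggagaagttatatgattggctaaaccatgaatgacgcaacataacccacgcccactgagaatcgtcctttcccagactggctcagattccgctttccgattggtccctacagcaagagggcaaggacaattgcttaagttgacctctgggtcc
MRPL24, match 1: tagcggcggACTACAACTCCCagcatgctg
MRPL24, match 2: tacacttggACTACAACTCCCagaaagtcg
MRPS18B: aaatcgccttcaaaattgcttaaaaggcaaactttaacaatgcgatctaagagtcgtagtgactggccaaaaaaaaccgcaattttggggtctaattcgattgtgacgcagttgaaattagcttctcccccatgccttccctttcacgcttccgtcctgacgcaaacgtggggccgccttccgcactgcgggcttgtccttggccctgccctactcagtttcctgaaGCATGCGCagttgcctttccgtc
MRPL22: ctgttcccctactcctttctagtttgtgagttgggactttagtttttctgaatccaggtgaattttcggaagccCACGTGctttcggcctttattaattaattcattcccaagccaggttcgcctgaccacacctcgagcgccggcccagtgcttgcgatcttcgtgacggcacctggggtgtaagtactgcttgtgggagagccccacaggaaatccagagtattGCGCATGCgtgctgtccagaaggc
The MRPS30 window held none of the 5 sets of letters, MRPS18B held the NRF1 letters once, and MRPL22 held the NRF1 letters and the E-box once each. The ZNF143 letters were added to the search after the MRPL24 sequence had been read, so their presence there is the reason for the search and not a result of it.

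Among the proteins that sit in the small subunit, MRPS25, MRPS12, MRPS23, MRPS31 and MRPS5 had the largest rises. MRPS25, a mitochondria-specific protein, had 75.3, 73.3 and 63.7 CPM in control and 93.2, 97.2 and 93.3 CPM in tamarixetin libraries. The groups did not overlap, and the third control was the lowest library. The log2 fold change was 0.42 ± 0.058 (edgeR adjusted p = 9.41e-10). MRPS25 overlaps NR2C2 on the opposite strand, which had a mean of 11.4 CPM and a log2 fold change of 0.029. MRPS12, the counterpart of the bacterial protein S12 at the decoding centre, had 44.2, 39.4 and 45.5 CPM in control and 58.2, 58.3 and 52.1 CPM in tamarixetin libraries. Its groups lay apart, with a log2 fold change of 0.38 ± 0.071 (edgeR adjusted p = 2.87e-06). MRPS23, mitochondria-specific, went from 65.4, 70.9 and 71.6 CPM to 90.6, 91.3 and 85.6 CPM, also without overlap (log2 fold change 0.36 ± 0.057, edgeR adjusted p = 5.97e-08).

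MRPS31, mitochondria-specific as well, had 50.7, 52.4 and 47.5 CPM in control and 60.7, 63.5 and 62.7 CPM in tamarixetin libraries (log2 fold change 0.31 ± 0.066, edgeR adjusted p = 3.79e-05). The table also lists the copy MRPS31P5 at a mean of 4.89 CPM, so part of the reads of MRPS31 could be split between them. The other named small-subunit genes with high levels had smaller rises. MRPS5, whose bacterial counterpart lies at the entry of the mRNA channel, had 148, 158 and 160.3 CPM in control and 195, 186 and 191 CPM in tamarixetin libraries (log2 fold change 0.30 ± 0.044, edgeR adjusted p = 1.36e-08). The groups of both genes did not overlap.

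Of the 4 most abundant MRPS symbols (MRPS18B, MRPS5, MRPS21 and MRPS16), all rose. MRPS18B had 218, 228 and 224 CPM in control and 259, 262 and 256 CPM in tamarixetin libraries (log2 fold change 0.22 ± 0.040, edgeR adjusted p = 2.58e-06). MRPS21 had 152, 146 and 153 CPM in control and 166, 169.9 and 162 CPM after tamarixetin, again apart (log2 fold change 0.15, edgeR adjusted p = 0.00516). MRPS16 had 139.7, 155 and 138 CPM in control and 166, 159 and 152 CPM after tamarixetin. The second control lay within the treated range, so these groups overlapped. The log2 fold change of MRPS16 was 0.15 (edgeR adjusted p = 0.00700), and it was not called without the third control (adjusted p = 0.0683) or without the first tamarixetin library (adjusted p = 0.0741).

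The human genome holds 3 genes related to the bacterial protein S18, of which 2 rose and 1 was not called. MRPS18B, above, and MRPS18C are small-subunit proteins, whereas MRPS18A is placed in the large subunit (family name mL66). MRPS18C had 86.1, 79.9 and 83.0 CPM in control and 97.0, 93.8 and 92.5 CPM in tamarixetin libraries, without overlap (log2 fold change 0.19 ± 0.054, edgeR adjusted p = 0.00320). MRPS18A had 48.5, 51.3 and 46.6 CPM in control and 48.04, 48.3 and 47.3 CPM after tamarixetin. The treated libraries of MRPS18A lay inside the control range, and its log2 fold change of -0.025 ± 0.070 was not called (edgeR adjusted p = 0.808). Differences between the 3 genes were not tested.

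Another symbol whose product stands apart from the small subunit is MRPS36, listed in RefSeq as KGD4, a subunit that links the parts of the 2-oxoglutarate dehydrogenase complex. It had 72.4, 75.4 and 79.1 CPM in control and 71.8, 73.5 and 78.1 CPM in tamarixetin libraries. These ranges overlapped almost wholly, with a log2 fold change of -0.025 ± 0.059 (edgeR adjusted p = 0.768). MRPS27, a protein with pentatricopeptide repeats, was the tested symbol nearest to 0: it had 139, 146 and 147 CPM in control and 145, 145 and 142 CPM after tamarixetin (log2 fold change -0.0003 ± 0.046, edgeR adjusted p = 0.997).

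Among MRPL symbols, the largest rises after MRPL24 were those of MRPL34 and MRPL21, both with bacterial counterparts. MRPL34 had 101, 103 and 115 CPM in control and 139, 136 and 129.6 CPM in tamarixetin libraries. The groups did not overlap, and the third control came nearest to the treated libraries (log2 fold change 0.34 ± 0.050, edgeR adjusted p = 8.30e-09). MRPL21 had 129.5, 125 and 124 CPM in control and 156, 157 and 155 CPM after tamarixetin, with little spread in either group (log2 fold change 0.31 ± 0.046, edgeR adjusted p = 1.78e-08). Of the 15 further MRPL symbols that rose, MRPL2 at 0.31 and MRPL3 at 0.13 marked the ends of the range of log2 fold changes. The call of MRPL3 was lost without any 1 of 5 libraries, the third control being the exception, and also with DESeq2, upper quartile scaling or no filter.

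**Figure D2:**
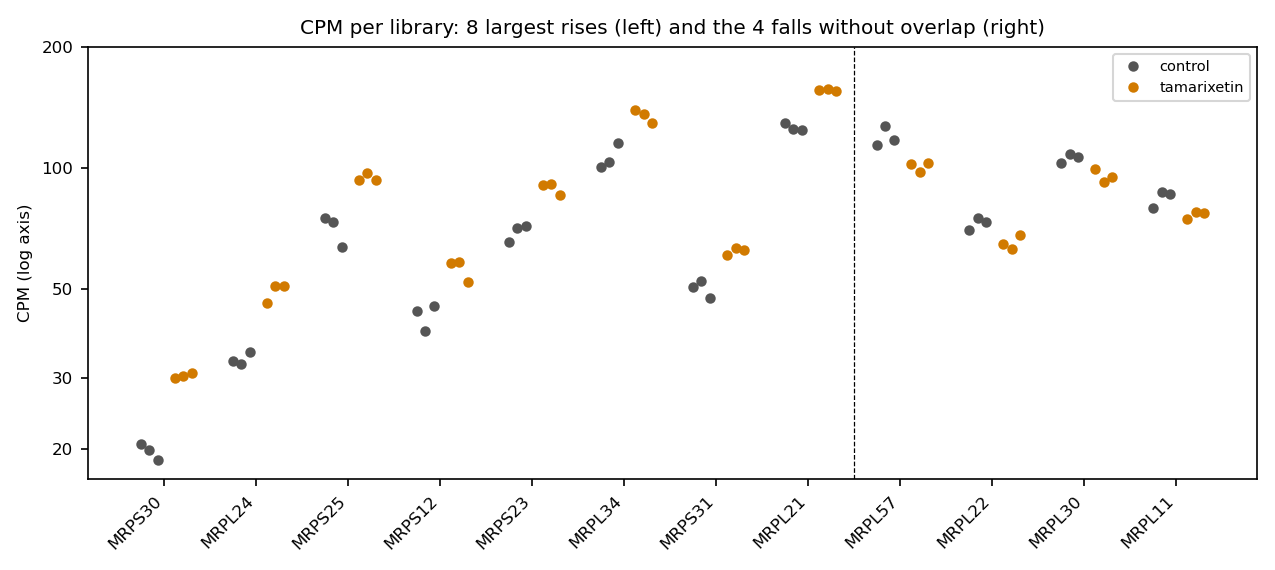
CPM in each library (y axis, log scale) of the 8 largest rises, left of the dashed line, and the 4 falls whose groups do not overlap, right of it, with control in grey and tamarixetin in orange. MRPS30 rises from about 20 to 30 CPM, and MRPL57 falls from 114, 127 and 117 CPM to 102, 97.9 and 103 CPM.

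Of the 4 most abundant MRPL symbols (MRPL52, MRPL33, MRPL45 and MRPL51), 1 rose and 3 were not called. MRPL52, mitochondria-specific, had 206, 202 and 193 CPM in control and 234, 223 and 226 CPM in tamarixetin libraries and rose without overlap (log2 fold change 0.19 ± 0.041, edgeR adjusted p = 0.000106). MRPL33, with a bacterial counterpart, had 188, 194 and 191 CPM in control and 199.5, 187 and 189 CPM after tamarixetin. These overlapped, with a log2 fold change of 0.0056 ± 0.043 (edgeR adjusted p = 0.932). MRPL45, which anchors the ribosome at the inner membrane beside the exit tunnel, had 176, 176 and 183 CPM in control and 186, 191 and 187 CPM after tamarixetin. Its groups lay apart, but the log2 fold change of 0.075 ± 0.043 was not called (edgeR adjusted p = 0.155). The copy MRPL45P2 was listed at a mean of 1.99 CPM. MRPL51 had 181, 176 and 175 CPM in control and 169.9, 173 and 168 CPM after tamarixetin, apart in the other direction and not called (log2 fold change -0.058 ± 0.043, edgeR adjusted p = 0.296). MRPL27, near the catalytic centre, was close to 0 with 141, 134 and 138 CPM in control and 142, 137 and 130.4 CPM after tamarixetin (log2 fold change -0.0089 ± 0.047, edgeR adjusted p = 0.899).

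The flexible stalk of the large subunit, which recruits the translation factors, had members on both sides. MRPL12, the stalk protein that also binds the mitochondrial RNA polymerase, had 37.5, 38.8 and 34.4 CPM in control and 41.6, 45.4 and 42.2 CPM in tamarixetin libraries (log2 fold change 0.23 ± 0.077, edgeR adjusted p = 0.0105). MRPL10, its anchor, rose as well (log2 fold change 0.16, edgeR adjusted p = 0.0158). MRPL11, at the base of the stalk, had 79.5, 87.4 and 86.1 CPM in control and 74.7, 77.7 and 77.3 CPM after tamarixetin. It fell, with all treated libraries below all controls (log2 fold change -0.14 ± 0.057, edgeR adjusted p = 0.0370). The call of MRPL12 was lost without the third control (adjusted p = 0.0934) or the second tamarixetin library (adjusted p = 0.0757), and that of MRPL10 without the second control or the third tamarixetin library. MRPL11 was not called without any 1 of 5 libraries, the first control being the exception (adjusted p from 0.0601 to 0.134). MRPL10 and the region members named in the next paragraph were chosen after their values were seen.

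In the central protuberance, the ridge that faces the small subunit, 3 of 6 symbols rose (MRPL18, MRPL38 and MRPL58) and none fell. That is 50% called, near the 43.7% of all genes, and the region counts that follow rest on 5 and 4 tested genes. MRPL58, a peptidyl-tRNA hydrolase that frees stalled ribosomes and is built into the large subunit, had 38.4, 41.0 and 39.9 CPM in control and 46.5, 47.7 and 42.1 CPM in tamarixetin libraries. The groups did not overlap (log2 fold change 0.19 ± 0.075, edgeR adjusted p = 0.0266), but the call was lost without the first control, the third control or the first or the second tamarixetin library (adjusted p from 0.0563 to 0.129). Around the exit tunnel, where 5 of 6 symbols were tested, MRPL24 and MRPL47 rose and MRPL22 fell. MRPL47 (log2 fold change 0.20 ± 0.066, edgeR adjusted p = 0.00807) was not called without the first tamarixetin library. In the head of the small subunit, 4 of 5 symbols were tested. There MRPS10 rose from 116, 122 and 111 CPM to 153, 127 and 133 CPM, while MRPS9 and MRPS14 fell and MRPS7 was not called.

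Falls were few and small. MRPL57, a mitochondria-specific protein of the large subunit, fell the most: it had 114, 127 and 117 CPM in control and 102, 97.9 and 103 CPM in tamarixetin libraries. Every treated library was below every control, with a ratio of 0.847 (log2 fold change -0.24 ± 0.051, edgeR adjusted p = 4.92e-05). MRPL22, beside the exit tunnel, had 70.3, 75.3 and 73.5 CPM in control and 64.6, 63.1 and 68.4 CPM after tamarixetin (log2 fold change -0.16 ± 0.060, edgeR adjusted p = 0.0237). MRPL30 had 103, 109 and 107 CPM in control and 99.5, 92.2 and 94.9 CPM after tamarixetin (log2 fold change -0.15 ± 0.052, edgeR adjusted p = 0.0154). Both lay apart from their controls.

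In MRPS14, with 53.1, 49.2 and 55.9 CPM in control and 44.6, 49.9 and 44.4 CPM after tamarixetin, the second libraries of the groups crossed (log2 fold change -0.19 ± 0.071, edgeR adjusted p = 0.0207). MRPS9 had 80.6, 69.0 and 76.9 CPM in control and 69.1, 66.7 and 69.4 CPM after tamarixetin, and the second control lay within the treated range (log2 fold change -0.15 ± 0.060, edgeR adjusted p = 0.0398). The call of MRPS14 was lost without the third control or the first or the third tamarixetin library, and that of MRPS9 without any 1 of 5 libraries, the second control being the exception. MRPS14 and MRPS9 were named after their values were seen, to complete the 6 falls. The number of falls dropped from 6 to 3 without the second control or without the third tamarixetin library, and to 2 without the third control, the first tamarixetin library or the second tamarixetin library. Falls over all genes numbered 2512 to 2645 in these settings, beside 2817 with all libraries. MRPL22 was not called without the second or the third control or the first or the second tamarixetin library (adjusted p from 0.0514 to 0.121), nor MRPL30 without the second control (adjusted p = 0.0524) or the second tamarixetin library (adjusted p = 0.110). With libraries scaled by their total alone, MRPL57 was the only fall left among the tested symbols, and 40 rose. That scaling gave 3383 rises and 2469 falls over all 13198 genes tested.

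The subunits were then set side by side. Of 28 tested MRPS symbols, 16 rose (57.1%) and 2 fell (7.14%), with a median log2 fold change of 0.17. Of 48 tested MRPL symbols, 18 rose (37.5%) and 4 fell (8.33%), with a median of 0.093. The background for both was 22.4% higher and 21.3% lower over all genes. Among the genes in the range of levels given above, 21.2 to 241 CPM, it was 29.8% higher and 26.7% lower. The difference between these shares was not tested, since genes are not replicates of a condition.

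The summed level of the MRPS symbols was 2430, 2452 and 2454 CPM in control and 2750, 2714 and 2682 CPM in tamarixetin libraries. That of the MRPL symbols was 3752, 3813 and 3852 CPM in control and 4045, 4012 and 3978 CPM after tamarixetin. In both sums all treated libraries were above all controls, 1.11-fold for MRPS and 1.05-fold for MRPL on the mean. The mean log2 CPM over MRPS symbols minus that over MRPL symbols was -0.064, -0.10 and -0.077 in control and -0.0076, 0.025 and 0.0028 in tamarixetin libraries. The 2 groups did not overlap on this scale either: the difference moved from -0.081 ± 0.019 to 0.0068 ± 0.017 (SD, n = 3 each), by 0.088 log2 units. The MRPS mean and median include MRPS28, which had few counts. With at least 5 CPM in 3 libraries required, which leaves MRPS28 out, the move was 0.070. The medians were then 0.14 for MRPS and 0.085 for MRPL symbols.

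**Figure D3:**
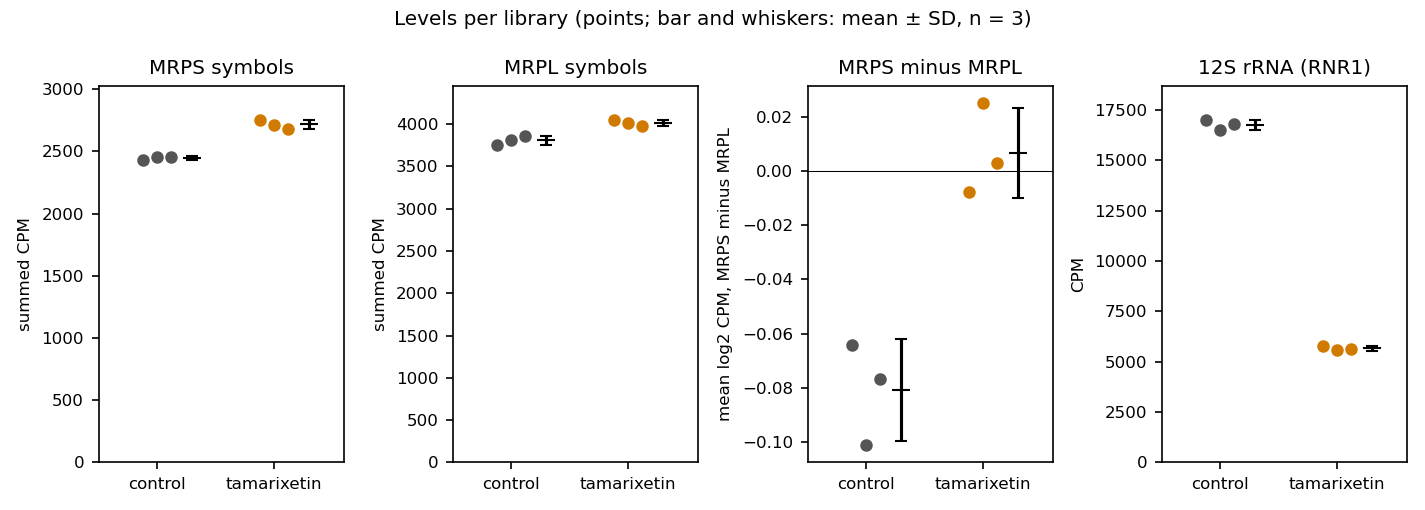
Summed CPM of MRPS and of MRPL symbols, the mean log2 CPM of MRPS minus that of MRPL symbols, and the CPM of the 12S rRNA gene RNR1, 1 point per library (grey control, orange tamarixetin) with mean ± SD, n = 3. Treated libraries lie above controls in the first 3 panels, where MRPS minus MRPL moves from -0.081 to 0.0068, and below them in the last, from 16770 to 5661 CPM.

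Symbols are an imperfect guide to the subunit, so the comparison was repeated with MRPS30 and MRPS18A counted as large-subunit proteins and MRPS36 left out. On that assignment 15 of 25 tested small-subunit genes rose and 2 fell (median 0.18), and 19 of 50 tested large-subunit genes rose and 4 fell (median 0.093). The level of small minus large genes moved from 0.042 ± 0.024 to 0.12 ± 0.018, by 0.076 log2 units. MRPS28, with its few counts, stayed among the small-subunit genes here. The 5 subunits that carry other symbols, given below, were in neither set, so the sets do not hold every protein of a subunit. Those 5 had a median log2 fold change of 0.088 (0.017 to 0.15). Large-subunit proteins with a family name that marks a bacterial counterpart were also counted apart from those without. MRPS18A and MRPS18B, though related to bacterial S18, were counted as without one, in the large and the small subunit. The median of large-subunit genes without a counterpart is the value of MRPS18A itself. Of 29 with a counterpart, 13 rose and 3 fell (median 0.13). Of 21 without one, 6 rose and 1 fell (median -0.025). As shares these are 44.8% higher and 10.3% lower with a counterpart and 28.6% and 4.76% without. The background was 22.4% higher and 21.3% lower over all genes, and 29.8% and 26.7% among genes of like level. The share of rises among those without a counterpart was thus near the background. In the small subunit there were 9 rises and 2 falls among 15 genes with a counterpart (median 0.18) and 6 rises and no fall among 10 without (median 0.16). The counts were also split by level. Of the 39 symbols at or above the members' median level, 21 rose and 3 fell (median log2 fold change 0.13), and of the 37 tested below it 13 rose and 3 fell (median 0.096).

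The cytosolic ribosome, which makes the bulk of the cell's proteins and all of those named above, was read in the same way. Of 77 cytosolic ribosomal protein genes, 14 rose and 5 fell (24.7% called against 43.7% of all genes), with a median log2 fold change of 0.015. Its small-subunit genes gave 4 rises and 3 falls of 31 (median 0.0080) and its large-subunit genes 10 rises and 2 falls of 46 (median 0.017). The 4 with the smallest p were large-subunit genes, RPL13 (0.16), RPL27 (0.16), RPL9 (0.17) and RPL26 (0.14). The small minus large level of the cytosolic genes went from 0.497 ± 0.00350 to 0.474 ± 0.00548 mean log2 CPM, by -0.023. Many cytosolic ribosomal genes have processed pseudogenes, and reads shared with them could be lost in counting.

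The RNA scaffolds of the mitochondrial ribosome went down where most of its protein transcripts did not. The 12S rRNA gene of the small subunit, RNR1, had 16993, 16493 and 16823 CPM in control and 5803, 5569 and 5611 CPM in tamarixetin libraries. It fell without overlap (log2 fold change -1.57 ± 0.025, edgeR adjusted p = 3.46e-76). The 16S rRNA gene of the large subunit, RNR2, had 35434, 33244 and 33053 CPM in control and 27386, 27101 and 28742 CPM after tamarixetin and also fell (log2 fold change -0.29 ± 0.023, edgeR adjusted p = 2.05e-20).

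The ratio of 12S to 16S reads went from 0.495 ± 0.0147 to 0.204 ± 0.00841 (SD, n = 3 each), the reverse in direction of the small to large balance of the protein transcripts. These libraries are primed at poly(A), so the values count rRNA molecules or fragments that could be primed and not all rRNA. Nuclear copies of mitochondrial DNA can also take up reads. Of the 13 protein-coding genes of mitochondrial DNA, whose mRNAs are what this ribosome translates, none rose and 9 fell. That is 69.2% lower against 21.3% of all genes, with a median log2 fold change of -0.28. COX3, a subunit of cytochrome c oxidase, went from 5987 ± 337 to 4295 ± 220 CPM (SD, n = 3 each; log2 fold change -0.48 ± 0.029, edgeR adjusted p = 5.41e-28). Mitochondrial transcripts as a whole made 10.6% ± 0.390 of control counts and 8.23% ± 0.278 of tamarixetin counts, and with the genes of mitochondrial DNA left out before scaling 33 of the mitoribosomal symbols rose and 6 fell. Without those genes 2921 of all 13147 tested genes rose and 2828 fell.

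Genes that work with the mitochondrial ribosome were read from lists drawn up beside the members. Of 5 subunits that carry other symbols, AURKAIP1 (log2 fold change 0.11, edgeR adjusted p = 0.0197) and DAP3 (0.15, edgeR adjusted p = 0.0224) rose and none fell. That is 40% called, near the 43.7% of all genes. AURKAIP1 was not called without the first control or the second tamarixetin library, and DAP3 not without the first control, the third control or the second or the third tamarixetin library (adjusted p from 0.0755 to 0.142 over both genes). Of 28 assembly factors, 8 rose and 3 fell (median 0.13), 39.3% called against 43.7% of all genes, so this count is no more than the background. TFB1M, which methylates the 12S rRNA as the small subunit is built, had 116, 132 and 119 CPM in control and 154, 154 and 158 CPM in tamarixetin libraries, without overlap (log2 fold change 0.34 ± 0.048, edgeR adjusted p = 1.32e-09). C1QBP, a matrix protein needed for mitochondrial translation, rose less (0.21). The 3 falls were RCC1L (-0.45), MTERF4 (-0.43) and MALSU1 (-0.25). RCC1L had 50.8, 50.2 and 56.2 CPM in control and 36.6, 39.7 and 39.3 CPM after tamarixetin, apart in every library (edgeR adjusted p = 1.58e-07). MALSU1 was named after its values were seen.

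Among 14 mitochondrial translation factors, 8 rose and none fell (57.1% higher against 22.4% of all genes, median 0.17). They included the initiation factor MTIF2 (log2 fold change 0.26), the formyltransferase MTFMT that makes the initiator tRNA ready (0.47), the release factor MTRF1L (0.45) and the elongation factor GFM1 (0.29). The 20 mitochondrial aminoacyl-tRNA synthetases showed no common direction. Of these 3 rose, among them NARS2 (0.49), and 4 fell, among them RARS2 (-0.25), VARS2 (-0.26) and IARS2 (-0.18), with a median of 0.080 and 35% called against 43.7% of all genes.

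Of 21 genes for mitochondrial transcription and RNA handling 20 were tested, and PTCD1 had 0 counts in all libraries. Of the 20, 14 rose and none fell (70% higher against 22.4% of all genes, median 0.21). FASTKD5, which helps to process mitochondrial mRNAs, had 53.2, 58.0 and 59.0 CPM in control and 83.6, 78.4 and 77.4 CPM in tamarixetin libraries (log2 fold change 0.49 ± 0.061, edgeR adjusted p = 2.89e-11). PNPT1, the polynucleotide phosphorylase of mitochondria, had a log2 fold change of 0.49, the RNA granule protein GRSF1 one of 0.34 and FASTKD1 one of 0.55. All 4 rose while the mitochondrial coding transcripts fell or were not called.

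Among 11 nuclear regulators of mitochondrial genes, 6 rose and 1 fell (54.5% higher against 22.4% of all genes, median 0.20). The receptor ESRRA had 33.9, 32.2 and 34.5 CPM in control and 47.3, 48.3 and 50.6 CPM after tamarixetin (log2 fold change 0.54 ± 0.075, edgeR adjusted p = 2.24e-09). MYC (0.48) and the coactivators PPRC1 (0.47) and PPARGC1B (1.69, from 1.15 to 3.71 CPM) also rose. SP1 fell (-0.42). The transcripts of NRF1, the factor best known for the promoters of respiratory genes, were at 8.53 ± 1.64 CPM in control and 9.78 ± 1.80 CPM in tamarixetin libraries and were not called (log2 fold change 0.19, edgeR adjusted p = 0.345).

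**Figure D4:**
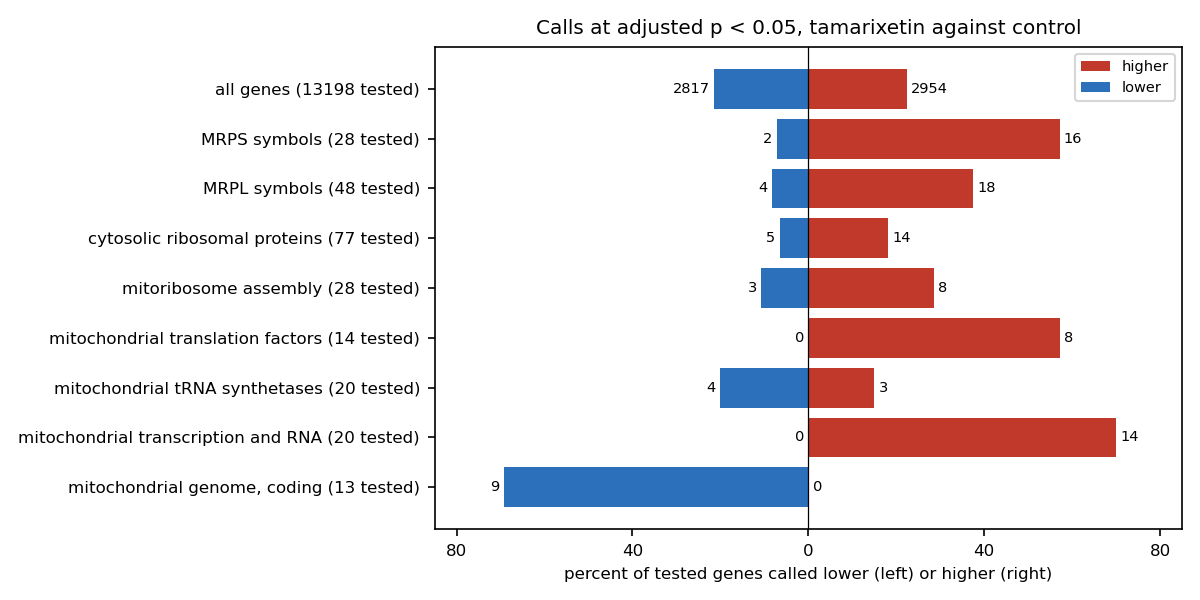
Percent of the tested genes of each list called lower (blue, left of 0) or higher (red, right of 0) at an adjusted p of 0.05, with the number of genes at each bar. All genes divide into 2954 higher and 2817 lower, MRPS symbols into 16 and 2, MRPL symbols into 18 and 4, and the coding genes of mitochondrial DNA into 0 and 9.

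All 78 members had a position in RefSeq GRCh38.p14. Only the 70 with a promoter entry could be searched for neighbours, and 26 of them had the start of a gene on the other strand within 1000 bases upstream. These made 26 distinct pairs. The partner was tested in 20 of them, with 2 partners higher and 4 lower, beside 22.4% higher and 21.3% lower over all genes. Member and partner were both called in 4 pairs, and in the same direction in 1 of them, MRPL18 (log2 fold change 0.24) with the chaperonin gene TCP1 (0.33), whose starts are 210 bases apart. The other pairs moved in opposite directions. They were MRPL30 (-0.15) with MITD1 (0.30) at 126 bases, MRPS18B (0.22) with PPP1R10 (-0.22) at 597 bases and MRPS2 (0.18) with PIERCE1 (-0.56) at 813 bases. MRPS2 was not called without the second control. MRPS12 (0.38) starts 181 bases from SARS2, the mitochondrial seryl-tRNA synthetase, which had a log2 fold change of -0.23 and was not called (edgeR adjusted p = 0.0535). In 1 pair both genes were members, MRPL46 (0.11) and MRPS11 (0.040), with starts 320 bases apart, and neither was called. The pairs were chosen by distance alone, and those given by name after their values were seen. In 28 members the gene overlaps another gene of the table. Where the counting ignored strand, or both genes lie on the same strand, reads of the overlap may not have been told apart. Same-strand overlaps include MRPL24 with HDGF, and MRPS6 (0.20, called higher) with SLC5A3 (0.91, mean 19.6 CPM). MRPS6 was named after its values were seen, and its call was lost without the first control or the first or the third tamarixetin library.

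Promoters of 70 members were in the RefSeq table and were searched over the 250 bases before the start, on both strands, beside 27305 promoters of the same length. The NRF1 letters GCATGCGC were in 6 members (8.57%) and in 2.81% of all promoters, or 4.96% of the 10358 that belong to tested genes. The ETS letters CCGGAAGT were in 9 members (12.9%), against 3.64% of all promoters and 7.40% of those of tested genes. The YY1 letters AAGATGGCG were in 3 (4.29%, against 0.641% and 1.19%), the E-box letters CACGTG in 7 (10.0%, against 6.49% and 8.88%) and the ZNF143 letters in 2, MRPL24 and MRPL50 (2.86%, against 0.978% and 2.14%). These are counts of letters in a window and were not tested. Since the ZNF143 letters were searched because they stood in MRPL24, their share among members cannot be read against the background.

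Members with and without the letters had overlapping responses. Of the 6 with the NRF1 letters, 3 rose and 1 fell (median log2 fold change 0.19, against 0.096 in the 63 tested members without them). Of the 9 with the ETS letters, 4 rose and none fell (median -0.0089, against 0.10 in 60 without). The 7 with the E-box letters gave 1 rise and 1 fall (median -0.025, against 0.13 in 62 without). The 3 with the YY1 letters gave 1 rise and no fall (median 0.19, against 0.094 in 66 without). Over all genes 22.4% were called higher and 21.3% lower. The 2 genes with the ZNF143 letters differed from each other, since MRPL24 had the second largest rise and MRPL50 had a log2 fold change of 0.020 that was not called.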

How the data were processed

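RNA of 6 HepG2 cultures was read with the QuantSeq 3′ kit (version 2, forward), per the labels' protocols. The submitters' processing notes name the tools fastp 0.23.1, STAR 2.7.10b, featureCounts 2.0.6 and the build GRCh38. The annotation release was not given in the sources used here, nor were the strand setting and the handling of molecular identifiers. The authors deposited raw counts, 1 file per library, with a count for each gene symbol.

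Genes passing filterByExpr (13198) went into edgeR 4.0.16 (R 4.3.3) and were compared by a quasi-likelihood test of group alone after TMM scaling, with Benjamini-Hochberg adjustment over all genes tested and a threshold of 0.05. SE was derived from the fold change and its F statistic. CPM use TMM-adjusted totals, and mean log2 CPM a prior count of 2. The chi-square per gene between libraries was 2.35 to 3.50 within groups and 38.9 to 50.9 across them, so none was treated as a copy. On simulated counts (13024 genes) the test recovered 52% of 50 genes changed 1.25-fold and 88% of 50 changed 2-fold, with 5 false calls. The changed genes were drawn from all levels and were a far smaller share than the 43.7% called in the data. These recoveries are therefore not those of the mitoribosomal symbols.

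Members named singly were the 8 largest rises and up to 8 falls past the threshold with groups apart and a mean of 10 CPM or more, the 4 most abundant symbols of each prefix, the 3 nearest to 0, the untested symbols and MRPS18A, MRPS18B, MRPS18C, MRPS30, MRPS36, MRPL58, MRPL12 and MRPL45. Of each other list up to 4 genes with the smallest p were named. Further genes are said to be chosen after their values were seen or mark a range or a neighbour. The members, lists and rules were chosen with earlier results of these data known. Subunit roles and lists come from general knowledge. Alternatives covered scaling, filters, tests (DESeq2 1.42.0, limma-voom from limma 3.58.1), thresholds, the replicate number as a block, mitochondrial genes left out, subunit assignment and each library left out.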

Additional observations from a re-analysis of the deposited data

How the results depend on the processing

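In the alternatives run, no called mitoribosomal symbol changed direction. The 34 rises and 6 falls became 33 and 6 with DESeq2 size factors, 40 and 1 by library size alone, 27 and 7 with upper quartile scaling, 28 and 2 with DESeq2, 26 and 1 at an adjusted p of 0.01, and 3 and 0 with a minimum fold of 1.2 (MRPS30, MRPL24 and MRPS25), where 19.4% of all genes were called. Scaling by library size alone moved the median of all genes to 0.035 and upper quartile scaling to -0.035. Calls over all genes moved as well. The 2954 rises and 2817 falls became 2915 and 2838 with DESeq2 size factors and 3383 and 2469 by library size alone. Upper quartile scaling gave 2598 and 3207, and an adjusted p of 0.01 gave 2336 and 2224. DESeq2 gave 2412 and 2269 of 14902 tested genes. Of MRPS symbols, 2 fell in the test as reported, 1 without a filter and 0 by library size alone, with DESeq2, at 0.01 or with the minimum fold, which left 2 rises. Of MRPL symbols, 4 fell as reported, 1 by library size alone, 2 with DESeq2, 1 at 0.01 and 0 with the minimum fold, which left 1 rise. The MRPS and MRPL medians were 0.20 and 0.13 by library size alone and 0.13 and 0.058 with upper quartile scaling, and that of MRPS was 0.14 with at least 5 CPM in 3 libraries. In the mitochondrial expression lists 35 genes rose and 7 fell of 87, beside 22.4% higher and 21.3% lower over all genes. At 0.01, 23 of them rose, beside 2336 of all 13198 genes. With the minimum fold 6 rose and 2 fell, where 19.4% of all genes were called. MRPS minus MRPL moved by 0.070 to 0.096. The cause of these shifts was not tested.

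With each library left out in turn, 28 to 32 symbols rose and 2 to 6 fell, with 0 to 2 falls and medians of 0.15 to 0.17 among MRPS and 1 to 5 falls and medians of 0.072 to 0.10 among MRPL symbols. Calls over all genes dropped too. Of 13440 to 13539 genes tested, 2643 to 2733 rose and 2512 to 2645 fell, beside 2954 and 2817 with all libraries. Uncalled log2 fold changes near 0 changed sign: by library size alone MRPS18A (0.010), MRPS36 (0.010), MRPS27 (0.035) and MRPL27 (0.026); MRPL33 with upper quartile scaling (-0.030) and at least 5 CPM (-0.0024); MRPS27 without a filter (0.0023) and with limma-voom (0.00074). Without single libraries they ran from -0.025 to 0.026 in MRPL33, -0.040 to 0.023 in MRPL27, -0.062 to 0.0050 in MRPS18A, -0.031 to 0.011 in MRPS27 and -0.061 to 0.0065 in MRPS36.

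The replicate block gave 35 rises (MRPL35 added) and 6 falls, beside 2943 and 2792 over all genes, and a log2 fold change of 5.03e-05 for MRPS27. Libraries with the same number did not deviate together (r -0.0089, -0.041 and -0.020), beside r of -0.015 to 0.037 between unlike numbers. With 3 libraries in each group this check cannot decide whether those with the same number shared a batch. MRPS24, MRPL23 and MRPS28 had too few assigned counts to show a difference.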
